A study of Oryctolagus cuniculus with 24 samples.

Results

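Axon guidance ligands and their receptors were followed in rabbit keratocytes, the matrix-making cells of the stroma of the cornea, under 3 culture conditions. The members were the genes of the deposited table whose names place them among the class 3 to 7 semaphorins, plexins, neuropilins, ephrins, Eph receptors, netrins, SLITs, ROBO receptors and UNC5 receptors, 69 of 23428 genes in all. One of them, UNC50, was taken in by its name alone: it encodes a Golgi protein and is no netrin receptor, and counts are given with and without it where they differ.

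All 24 libraries came from first-passage cells plated in serum-free medium on glass coated with collagen and cultured for 6 days, with 8 libraries per condition. In the TGF-β1 condition, called myofibroblast in the labels, the serum-free medium carried TGF-β1 at 5 ng/mL from day 1 and again on day 3. In the FBS condition, called fibroblast, the cells had serum-free medium on day 1 and DMEM with 10% fetal bovine serum from day 3, so that base medium and days of exposure also differ from the other conditions. In the serum-free condition, called keratocyte, no factor or serum was added at either medium change. The labels do not say whether the 8 replicates of a condition came from separate animals or cultures, so p-values speak only to the scatter among these libraries, and that scatter may be technical.

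The guidance families are best known from growing axons, where secreted or membrane-held cues attract or repel a growth cone through its receptors. Class 3 semaphorins are secreted and act through neuropilins paired with plexins, whereas most other semaphorins bind plexins directly. Ephrins are held in the membrane and signal to Eph receptor tyrosine kinases on a touching cell. Some netrins, NTN1 among them, bind DCC, neogenin and UNC5 receptors, and SLITs bind ROBO receptors. These receptors act on the cytoskeleton through small GTPases in many cells that are not neurons, and in the chick embryo semaphorin and SLIT signals take part in the entry of sensory nerves into the cornea.

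Total counts ran from 15410285 to 20911192 in TGF-β1 libraries, from 15659561 to 22528261 in FBS libraries and from 17151397 to 21540864 in serum-free libraries. Replicates 1 to 4 and 5 to 8 stood apart on the third principal component (5.75% of the variance of all tested genes), and FBS replicates 5 and 6 lay farthest out among the FBS libraries on it, so some results are also given within each set of 4 or without these 2 libraries. Keratocyte markers (7 of 8 in the table) summed to 13454 to 23607 CPM (counts scaled to library size) in TGF-β1 libraries, 2029 to 4397 CPM in FBS libraries and 61039 to 98135 CPM in serum-free libraries. The myofibroblast marker ACTA2, smooth muscle actin, was at 115 to 403 CPM (median 202) with TGF-β1, 247 to 722 CPM (median 482) with FBS and 0.353 to 6.93 CPM (median 2.71) in serum-free medium, with a log2 fold change of -1.05 ± 0.37 for TGF-β1 over FBS (edgeR adjusted p = 0.0127). TAGLN, the other myofibroblast marker in the table, was at 279.8 to 627 CPM (median 352), 157 to 356 CPM (median 262) and 0.337 to 7.76 CPM (median 3.08) in the same order, and its higher median under TGF-β1 than under FBS was not called (log2 0.67 ± 0.31, edgeR adjusted p = 0.0531; 0.68, edgeR adjusted p = 0.00597 with the replicate block). Neuron markers (5 of 6 in the table) summed to at most 0.728 CPM in any TGF-β1 library, 1.48 CPM in any FBS library and 0.424 CPM in any serum-free library, with STMN2 at 0 in every library. Corneal epithelial markers (6 of 7) reached at most 0.764 CPM in sum, with KRT12 at 0 throughout. Schwann cell and melanocyte markers (8 of 8) summed to 5.40 to 9.81 CPM with TGF-β1, 2.73 to 4.57 CPM with FBS and 15.1 to 27.5 CPM in serum-free medium. Vascular endothelial markers (6 of 6), mostly ERG, summed to 191 to 298 CPM with TGF-β1, 51.9 to 73.2 CPM with FBS and 181 to 238 CPM in serum-free medium, and corneal endothelial markers (4 of 4), mostly COL8A2, to 2362 to 3229 CPM, 279 to 416 CPM and 1081 to 1375 CPM. Leukocyte markers (6 of 7), mostly CD68, summed to 6.05 to 9.68 CPM with TGF-β1, 12.02 to 26.04 CPM with FBS and 3.01 to 5.79 CPM in serum-free medium, and pericyte and smooth muscle markers (5 of 5), led by CSPG4, to 58.99 to 129.5 CPM, 75.3 to 121 CPM and 37.7 to 70.6 CPM. Sums led by 1 gene mostly followed that gene, and other listed markers could differ in order. TFAP2B was highest in serum-free medium (mean 207 CPM), and SLC4A11, CA12 and PECAM1 with FBS (6.93, 1.86 and 0.679 CPM). CD74, PTPRC and TYROBP were highest in serum-free medium (0.998, 0.147 and 0.128 CPM), and CSF1R and CD3E with TGF-β1 (0.834 and 0.173 CPM). The part of these marker levels in the differences below was not tested, and in bulk RNA fewer cells of a type cannot be told apart from less RNA per cell.

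Of the 69 members, 56 had enough counts to be tested. The 13 others were EFNB3, EPHA3, EPHA6, EPHA8, EPHB6, NTN3, NTN5, ROBO3, ROBO4, SEMA4A, UNC5A, UNC5C and UNC5CL. Among these ROBO4, the ROBO of endothelial cells, had 29 counts over the 8 TGF-β1 libraries, 18 over the FBS libraries and 133 over the serum-free libraries, and EPHA8 had 1 count in all 24 libraries. EPHA7, EPHB1, SEMA3G, SEMA5B, SEMA7A and SLIT1 would have failed the count filter without the libraries of 1 condition, so a difference in them was partly or wholly fixed by the filter.

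Compared per length, in the authors' FPKM (fragments per kilobase of gene, scaled to a library size set by the authors), a few genes made up most of each family. NTN4, a netrin of basement membranes, was the most abundant member in all 3 conditions, at 466 ± 39.4 FPKM in TGF-β1 cultures, 323 ± 38.5 FPKM in FBS cultures and 236 ± 25.7 FPKM in serum-free cultures (mean ± SD, n = 8 each, as for every FPKM below). SEMA3C came second in both treatments, with 180.3 ± 49.3 FPKM under TGF-β1 and 152 ± 24.7 FPKM under FBS, against 87.4 ± 7.15 FPKM in serum-free medium, where SLIT3 stood second at 185 ± 20.8 FPKM. Summed over the family, netrins and UNC5 receptors reached 542 ± 43.9 FPKM with TGF-β1, 346 ± 39.3 FPKM with FBS and 261 ± 29.2 FPKM in serum-free medium. SLITs and ROBOs summed to 100.3 ± 10.7 FPKM with TGF-β1, 25.8 ± 3.71 FPKM with FBS and 254 ± 23.9 FPKM in serum-free medium, so that both treatments lay below serum-free medium. Semaphorins summed to 244 ± 52.9, 203 ± 27.3 and 354 ± 7.75 FPKM, and SEMA3C supplied 73.9% of that sum under TGF-β1 and 74.9% under FBS, against 24.7% in serum-free medium. Plexins and neuropilins summed to 292 ± 14.3 FPKM with TGF-β1, 188 ± 23.5 FPKM with FBS and 174 ± 16.04 FPKM in serum-free medium, and their leading member was NRP2, NRP1 and PLXNB2 in turn. Ephrins summed to 41.4 ± 7.91 FPKM with TGF-β1, 25.98 ± 1.57 FPKM with FBS and 49.5 ± 2.34 FPKM in serum-free medium, and Eph receptors to 74.6 ± 4.15, 67.4 ± 0.954 and 104 ± 2.48 FPKM.

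**Figure D1:**
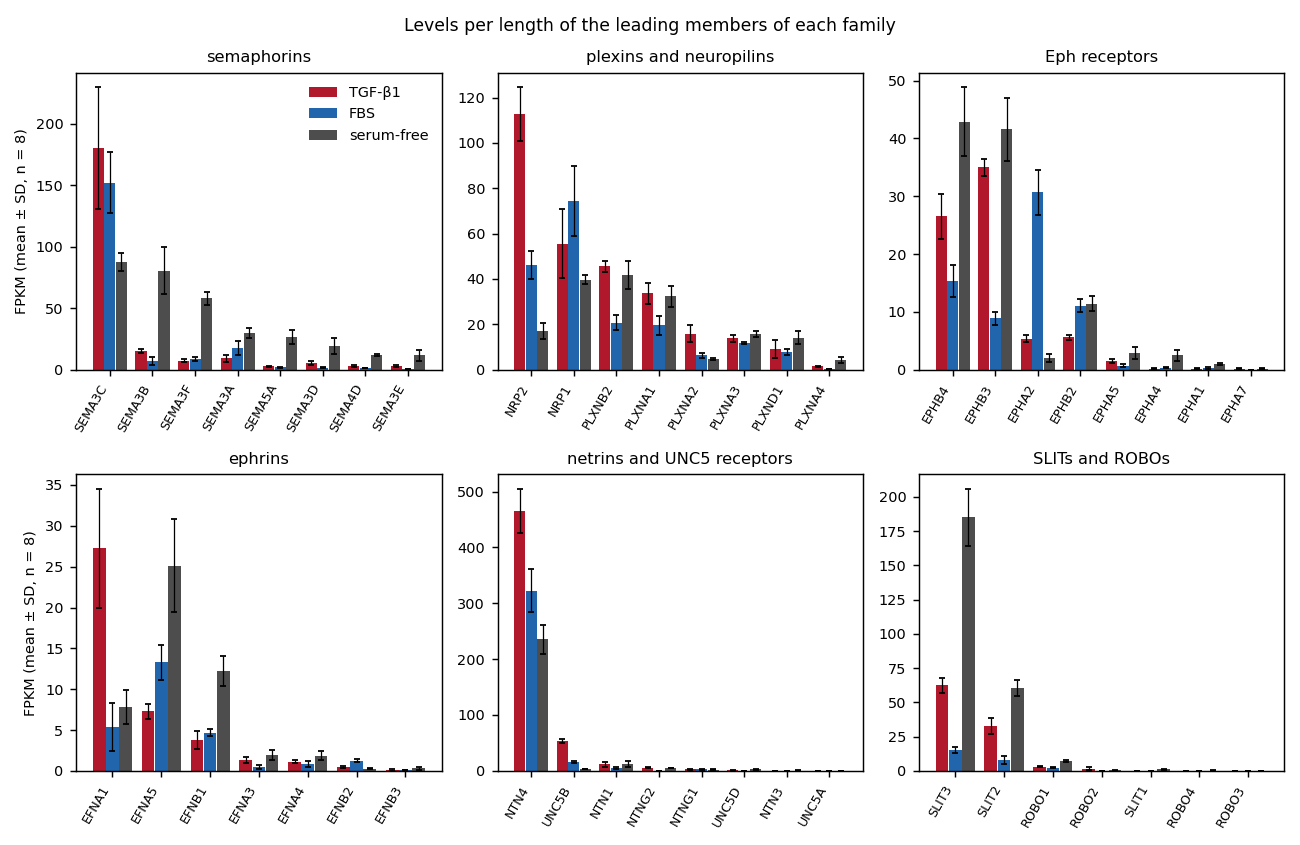
Mean FPKM ± SD (n = 8 libraries per condition) of up to 8 leading members of each family, on linear axes from 0, with TGF-β1 in red, FBS in blue and serum-free in grey. NTN4 is highest in every condition, the serum-free bars lead for SLIT3 and SLIT2, and the TGF-β1 bar leads for NRP2 and EFNA1.

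The first question was which guidance genes differed between each treatment and the serum-free cells. TGF-β1 cultures had 15 members higher and 31 lower than serum-free cultures, and 10 were not called (edgeR quasi-likelihood test, adjusted p under 0.05 over 13308 genes). Called members were thus 82.1% of those tested, against 64.3% of all genes tested, and the lower calls alone were 55.4% of members against 33.1% of all genes, where higher calls were 26.8% against 31.2%. FBS cultures had 11 members higher and 39 lower, with 6 not called. That is 89.3% of members called, against 80.0% of all genes, 69.6% called lower against 40.5%, and 19.6% called higher against 39.5%. The median log2 fold change of the members was -0.59 for TGF-β1 and -1.43 for FBS, where that of all genes tested was -0.03 and -0.04.

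Called changes of at least 2-fold numbered 11 higher and 22 lower of 56 with TGF-β1, where 10.9% of all genes were higher and 15.2% lower by as much. With FBS they numbered 7 higher and 32 lower, where 22.3% of all genes were higher and 24.2% lower. The libraries did not overlap between groups for 33 members with TGF-β1 against serum-free, or 58.9% of those tested (33.9% of all genes tested). With FBS against serum-free they did not overlap for 43 members, or 76.8% (52.9% of all genes tested). Leaving UNC50 out gave 14 higher and 31 lower, and 11 higher and 38 lower. Without the 6 members that depended on 1 condition to pass the filter, the counts were 12 higher and 29 lower of 50, and 9 higher and 36 lower of 50. Replicates 1 to 4 alone gave 18 higher and 29 lower for TGF-β1 and 12 and 40 for FBS, and replicates 5 to 8 alone gave 14 and 28, and 11 and 42. An effect that differed between the replicate sets was called for 9 of 56 members with TGF-β1 against serum-free (10.3% of all genes). It was called for 18 of 56 with FBS against serum-free (22.4% of all genes) and 21 of 56 with TGF-β1 against FBS (23.9%). Both treatments were compared with the same 8 serum-free libraries.

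**Figure D2:**
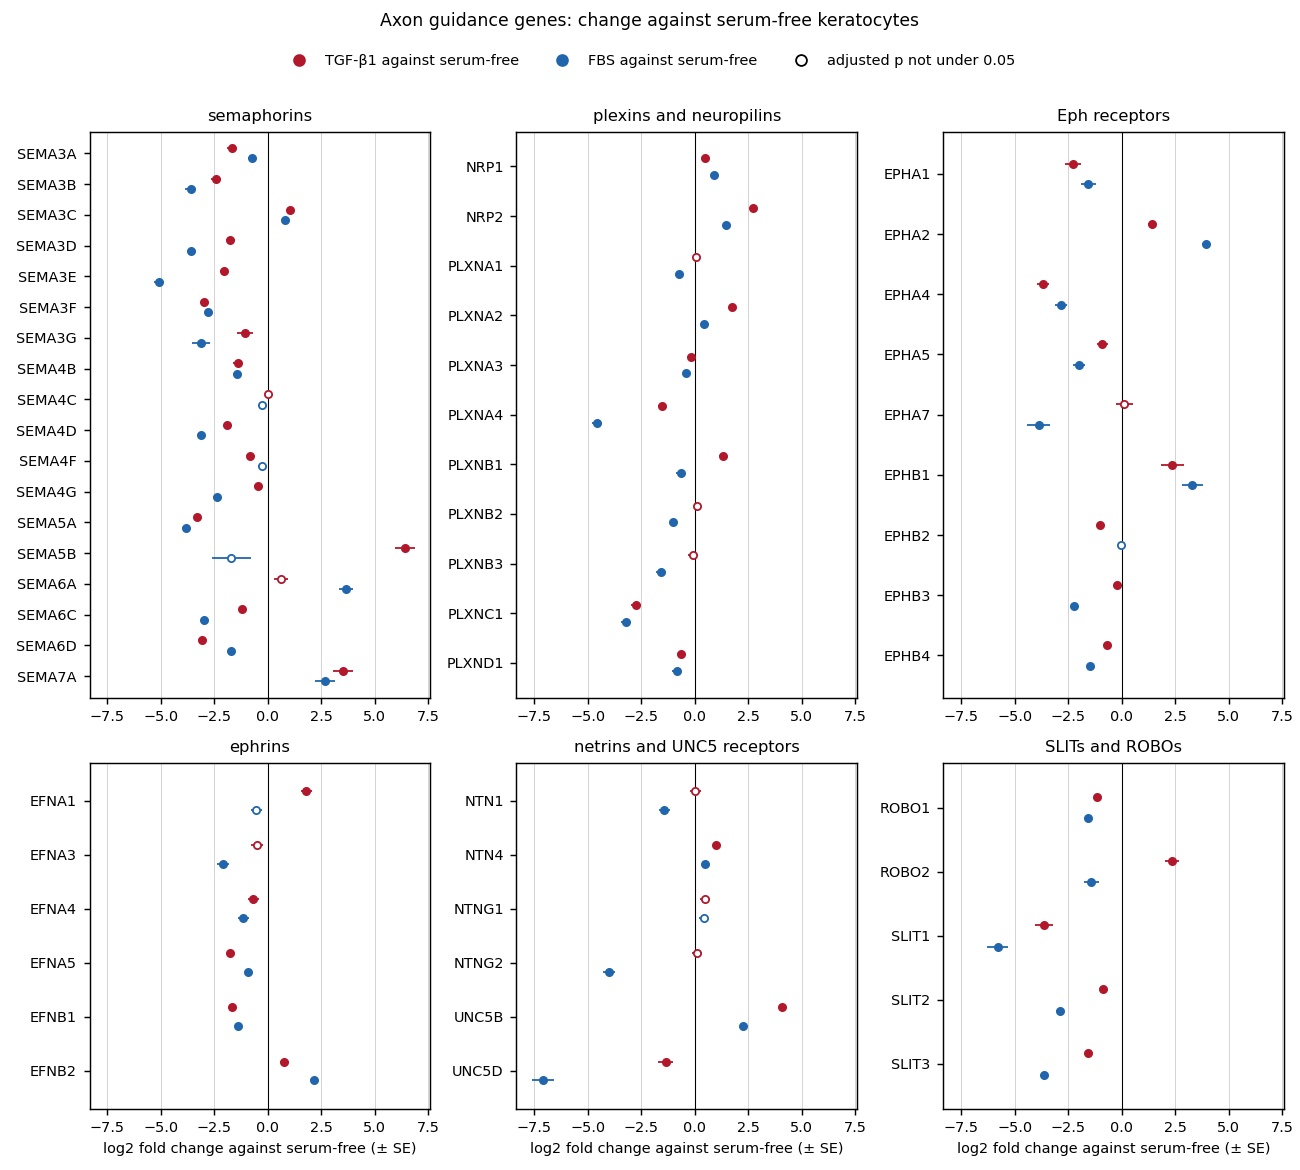
Log2 fold change against serum-free ± SE for 55 tested members by family (UNC50 left out), with TGF-β1 in red above FBS in blue, and open points where the adjusted p was not under 0.05. Most points lie left of 0, and UNC5B, NRP2, SEMA3C, EPHA2 and EFNB2 lie right of it in both treatments.

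Semaphorins were mostly lower in both treatments: of 18 tested, 3 were higher and 13 lower with TGF-β1, and 3 higher and 12 lower with FBS. The 7 secreted class 3 genes split into 1 higher and 6 lower in each treatment, and SEMA3C was the one that was higher. SEMA3C, a secreted cue that also acts in heart outflow tract development, was at 639 to 1300.5 CPM (median 906) in TGF-β1 libraries, 555 to 886 CPM (median 815) in FBS libraries and 399 to 494 CPM (median 438) in serum-free libraries. Every treated library lay above every serum-free library. The log2 fold change was 1.04 ± 0.14 for TGF-β1 (edgeR adjusted p = 2.27e-07) and 0.80 ± 0.14 for FBS (edgeR adjusted p = 6.33e-06).

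The 6 other class 3 members were lower in both treatments. SEMA3E, a secreted ligand of plexin D1, was at 10.1 to 21.7 CPM (median 14.6) with TGF-β1, 1.13 to 2.15 CPM (median 1.83) with FBS and 34.96 to 86.8 CPM (median 62.4) in serum-free medium. None of the 3 groups overlapped, and SEMA3E was 4.17-fold lower with TGF-β1 (log2 -2.06 ± 0.19, edgeR adjusted p = 6.64e-10) and 34.1-fold lower with FBS (log2 -5.09 ± 0.23, edgeR adjusted p = 6.57e-17). SEMA3B, named a tumour suppressor in human lung cancer, was at 63.04 to 80.3 CPM (median 68.9), 14.1 to 48.1 CPM (median 30.2) and 275 to 494 CPM (median 366) in TGF-β1, FBS and serum-free libraries. It too had no overlap between any pair of conditions, with log2 fold changes of -2.41 ± 0.23 and -3.60 ± 0.25 for TGF-β1 and FBS.

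SEMA3F, a neuropilin-2 ligand, was 7.998-fold lower with TGF-β1 and 6.92-fold lower with FBS, at 20.1 to 28.5 CPM and 21.1 to 34.5 CPM, against 174 to 225 CPM in serum-free libraries. SEMA3D and SEMA3A, a repellent of sensory axons, fell as well, with log2 fold changes of -1.75 and -1.69 with TGF-β1 and -3.57 and -0.75 with FBS. SEMA3G was at 0.402 to 2.34 CPM with TGF-β1 and 0 to 0.492 CPM with FBS, against 1.28 to 3.35 CPM in serum-free medium, and its TGF-β1 call was lost in replicates 5 to 8 alone (-0.81). It would have failed the count filter without the serum-free libraries, so its lower calls were at least partly fixed by the filter. In the deposited gene models, whose build no source used here gives, SEMA3D, SEMA3A and SEMA3E lie between 42911188 and 44565598 on chromosome 10, and SEMA3F and SEMA3B between 17636008 and 17733640 on chromosome 9.

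Among the membrane semaphorins the treatments differed from each other in single genes. SEMA5A, a transmembrane semaphorin with thrombospondin repeats, was at 20.1 to 34.1 CPM (median 28.4) with TGF-β1, 11.1 to 26.2 CPM (median 20.5) with FBS and 169.8 to 324 CPM (median 282) in serum-free medium, so both treatments lay far below serum-free cells, 9.78-fold and 14.02-fold. Its relative SEMA5B was read almost only in TGF-β1 libraries, at 1.95 to 6.33 CPM (median 3.04), where the 8 libraries held 435 counts in all, against 1 count in the FBS libraries and 5 counts in the serum-free libraries. SEMA5B was called higher with TGF-β1 than in serum-free medium (log2 6.40 ± 0.47, edgeR adjusted p = 4.59e-12). It passed the count filter only through the TGF-β1 libraries, so the direction of this call was fixed by the filter. The difference between FBS and serum-free libraries could not be resolved at that depth, with a ratio of 0.170 (95% binomial interval 0.00359 to 1.52, counting error only).

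SEMA6A, a ligand of plexins A2 and A4, showed the reverse preference. It was at 0.286 to 2.02 CPM (median 0.962) with TGF-β1, 4.75 to 10.5 CPM (median 8.63) with FBS and 0.118 to 1.20 CPM (median 0.621) in serum-free medium. All FBS libraries lay above all others, and the log2 fold change against serum-free was 3.64 ± 0.32 for FBS (edgeR adjusted p = 6.91e-11) and 0.62 ± 0.34 for TGF-β1, which was not called (edgeR adjusted p = 0.114). SEMA6D, a plexin A1 ligand, was at 3.96 to 7.45 CPM (median 5.000), 7.46 to 17.2 CPM (median 13.4) and 27.4 to 61.6 CPM (median 41.9) in TGF-β1, FBS and serum-free libraries, with no overlap between conditions. It fell 8.43-fold with TGF-β1 and 3.25-fold with FBS.

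SEMA7A, a membrane-anchored semaphorin that binds plexin C1 and integrins, was low throughout, with 228 counts over the TGF-β1 libraries, 174 over the FBS libraries and 23 over the serum-free libraries. It was called higher in both treatments (log2 3.52 ± 0.46 and 2.65 ± 0.47). SEMA7A passed the count filter only through the treated libraries, so the direction of both calls was fixed by the filter. Its receptor gene PLXNC1 fell in both treatments. The deposited SEMA7A gene model is only 949 bases long. SEMA4D, the ligand of plexin B1, fell in both treatments (log2 -1.91 with TGF-β1 and -3.14 with FBS), and so did SEMA6C (-1.22 and -2.98). SEMA4B and SEMA4G also fell in both treatments, though SEMA4G lost its TGF-β1 call in replicates 1 to 4 (-0.31). SEMA4F fell with TGF-β1 (log2 -0.84) and was not called with FBS (-0.29) except without FBS replicates 5 and 6 (-0.39, edgeR adjusted p = 0.0321) and with the replicate sets as a term (-0.29, edgeR adjusted p = 0.0488). SEMA4C was not called in either treatment, although the replicate block called it lower with FBS (-0.24, edgeR adjusted p = 0.00136) and higher with TGF-β1 than with FBS (0.27, edgeR adjusted p = 0.000633).

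Plexins and neuropilins, the semaphorin receptors, were more evenly divided, with 4 of 11 higher and 4 lower under TGF-β1, and 3 higher and 8 lower under FBS. NRP2, a co-receptor for class 3 semaphorins and VEGF, was at 994 to 1271 CPM (median 1082) with TGF-β1, 353 to 510.3 CPM (median 480.0) with FBS and 125 to 229.9 CPM (median 168) in serum-free medium. The 3 groups did not overlap, and NRP2 rose 6.60-fold with TGF-β1 (log2 2.72 ± 0.12, edgeR adjusted p = 2.36e-16) and 2.72-fold with FBS (log2 1.44 ± 0.12, edgeR adjusted p = 1.15e-11). NRP1, its relative, was at 193 to 360.3 CPM (median 276), 265 to 447 CPM (median 392) and 184 to 211 CPM (median 198) in the same order. NRP1 thus had its highest libraries under FBS, with log2 fold changes of 0.49 ± 0.14 for TGF-β1 and 0.91 ± 0.14 for FBS, and the TGF-β1 value was 0.81 in replicates 1 to 4 and 0.07, not called, in replicates 5 to 8.

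PLXNA2 rose 3.36-fold with TGF-β1, at 75.3 to 126 CPM, and 1.33-fold with FBS, at 26.5 to 46.7 CPM, against 25.6 to 35.1 CPM in serum-free medium; the FBS call was lost in replicates 5 to 8 (0.16). PLXNB1, the SEMA4D receptor, moved in opposite directions, at 14.1 to 27.5 CPM (median 21.9) with TGF-β1, 4.14 to 7.27 CPM (median 5.07) with FBS and 5.20 to 11.97 CPM (median 7.86) in serum-free medium. Its log2 fold change was 1.31 ± 0.19 for TGF-β1 (edgeR adjusted p = 1.76e-06) and -0.67 ± 0.20 for FBS (edgeR adjusted p = 0.0033), and the FBS call was lost when libraries were scaled by total counts alone (-0.42, edgeR adjusted p = 0.0625).

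PLXNA4, a receptor for SEMA3A and class 6 semaphorins, was at 11.6 to 22.5 CPM (median 18.7) with TGF-β1, 0.94 to 2.74 CPM (median 2.26) with FBS and 28.2 to 71.7 CPM (median 49.8) in serum-free medium, so that FBS cells held 24.1-fold less than serum-free cells and TGF-β1 cells 2.90-fold less. PLXNC1 fell 6.70-fold with TGF-β1 and 9.34-fold with FBS, at 1.22 to 4.09 CPM and 0.544 to 2.24 CPM, against 11.95 to 20.5 CPM in serum-free libraries. PLXND1 and PLXNA3 fell in both treatments by less than 2-fold (log2 -0.65 and -0.18 with TGF-β1, -0.85 and -0.40 with FBS), and PLXNA3 lost its TGF-β1 call in replicates 5 to 8 (-0.06). PLXNA1, PLXNB2 and PLXNB3 fell with FBS (log2 -0.73, -1.01 and -1.58) and were not called with TGF-β1.

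Ephrins, the membrane-held ligands of Eph receptors, had 2 of 6 tested members higher and 3 lower with TGF-β1, and 1 higher and 4 lower with FBS. EFNA1, the preferred ligand of EPHA2, was at 29.2 to 54.1 CPM (median 41.9) with TGF-β1, 3.93 to 14.4 CPM (median 7.12) with FBS and 7.54 to 16.2 CPM (median 11.2) in serum-free medium. All TGF-β1 libraries lay above all others, and EFNA1 rose 3.48-fold with TGF-β1 (log2 1.80 ± 0.26, edgeR adjusted p = 1.15e-06). Its FBS value was not called (log2 -0.54 ± 0.26, edgeR adjusted p = 0.059), whereas the fit with the replicate number as a block called it lower (-0.64, edgeR adjusted p = 0.000172). Without FBS replicates 5 and 6 it was -0.94 (edgeR adjusted p = 0.000776), and DESeq2 and limma on FPKM also called it lower (adjusted p = 0.0425 and 0.0226). The FBS value was -1.07 in replicates 1 to 4 and -0.26 in replicates 5 to 8, a difference that passed the test (edgeR adjusted p = 0.00528).

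EFNA5, the leading ephrin of serum-free cells, was at 32.3 to 45.5 CPM (median 40.6) with TGF-β1, 54.9 to 83.5 CPM (median 74.7) with FBS and 98.9 to 165 CPM (median 138) in serum-free medium. The groups did not overlap, and EFNA5 fell 3.45-fold with TGF-β1 and 1.89-fold with FBS. EFNB1 fell in both treatments (log2 -1.69 and -1.38), while EFNB2, the ephrin that marks arteries, rose in both and more with FBS (log2 0.77 and 2.16), at 0.896 to 2.19 CPM, 2.78 to 5.001 CPM and 0.519 to 1.31 CPM in TGF-β1, FBS and serum-free libraries. EFNA4 fell in both (log2 -0.69 and -1.15), and the TGF-β1 call was lost in either set of 4 replicates (-0.82 and -0.57). EFNA3 fell with FBS (log2 -2.09) and was not called with TGF-β1 (-0.53, edgeR adjusted p = 0.0915; -0.55, edgeR adjusted p = 0.0477 with the replicate block). EFNA1, EFNA3 and EFNA4 lie side by side on chromosome 13 of the deposited gene models, between 37536128 and 37603401.

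Eph receptors had 2 of 9 tested members higher and 6 lower in each treatment. EPHA2, an Eph receptor of epithelia and many tumours, was at 15.2 to 20.7 CPM (median 15.9) with TGF-β1, 81.2 to 109 CPM (median 99.2) with FBS and 3.06 to 10.6 CPM (median 6.41) in serum-free medium. The 3 groups did not overlap, and EPHA2 rose 15.1-fold with FBS (log2 3.92 ± 0.17, edgeR adjusted p = 2.03e-17) and 2.64-fold with TGF-β1 (log2 1.40 ± 0.16, edgeR adjusted p = 1.72e-08). The leading share of the summed Eph receptor FPKM was that of EPHB3 in TGF-β1 cultures (46.9%), EPHA2 in FBS cultures (45.5%) and EPHB4 in serum-free cultures (41.1%).

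EPHB3 was at 120.1 to 138 CPM (median 127) with TGF-β1, 27.2 to 37.5 CPM (median 32.6) with FBS and 129 to 182 CPM (median 148) in serum-free medium. TGF-β1 and serum-free libraries overlapped, and all FBS libraries lay below both. The FBS difference was 4.65-fold (log2 -2.22 ± 0.09, edgeR adjusted p = 2.74e-18), and the smaller TGF-β1 difference (log2 -0.25 ± 0.08) lost its call in replicates 5 to 8 (-0.14). EPHB4, the venous receptor of EFNB2, fell 1.62-fold with TGF-β1 and 2.79-fold with FBS. EPHA4, which binds ephrins of both classes, was at 0.346 to 2.18 CPM (median 1.04) with TGF-β1, 1.39 to 3.38 CPM (median 2.08) with FBS and 7.45 to 23.3 CPM (median 15.8) in serum-free medium, and so was 12.9-fold and 7.17-fold lower in the treated cells.

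EPHB2 was at 23.6 to 30.5 CPM with TGF-β1, 44.3 to 58.7 CPM with FBS and 45.6 to 62.4 CPM in serum-free medium. It fell with TGF-β1 (log2 -1.04 ± 0.08), and its FBS value of -0.05 ± 0.08 was not called and turned positive under total-count scaling (0.20, edgeR adjusted p = 0.0292). EPHA7 was lower with FBS, where the 8 libraries held 11 counts, against 148 counts in serum-free medium, and was not called with TGF-β1 (138 counts; log2 0.12 ± 0.39). It passed the count filter without help from any FBS library, so its FBS call was at least partly fixed by the filter. EPHA1 fell in both treatments (log2 -2.28 and -1.57), and so did EPHA5. The EPHA5 value was -0.91 with TGF-β1, and with FBS it differed between replicate sets, at -0.95 in replicates 1 to 4 and -3.14 in replicates 5 to 8. EPHB1 was called higher in both, with 42 counts over the TGF-β1 libraries and 115 over the FBS libraries, against 9 over the serum-free libraries. It passed the count filter only through the treated libraries, so the direction of both calls was fixed by the filter.

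Netrins and UNC5 receptors held the most abundant ligand and the steepest rise among receptors well above the filter. Of 6 tested, 2 were higher and 1 lower with TGF-β1, and 2 were higher and 3 lower with FBS. UNC5B, a repulsive netrin receptor that is also known from vessels, was at 268 to 327 CPM (median 318) with TGF-β1, 73.4 to 98.8 CPM (median 88.3) with FBS and 14.6 to 21.9 CPM (median 17.95) in serum-free medium. The 3 groups lay far apart, with a 16.99-fold rise with TGF-β1 (log2 4.09 ± 0.09, edgeR adjusted p = 9.91e-23) and a 4.79-fold rise with FBS (log2 2.26 ± 0.08, edgeR adjusted p = 5.89e-19). The TGF-β1 value was 4.06 in replicates 1 to 4 and 4.12 in replicates 5 to 8. UNC5B lies on chromosome 18 of the deposited gene models, from 15906998 to 15977725.

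NTN4 was at 1283 to 1658 CPM (median 1492) with TGF-β1, 835 to 1129 CPM (median 1081) with FBS and 625 to 873 CPM (median 751) in serum-free medium. TGF-β1 libraries lay above all serum-free libraries (1.97-fold, log2 0.98 ± 0.09, edgeR adjusted p = 1.72e-10), and FBS libraries overlapped the serum-free libraries (1.37-fold, log2 0.45 ± 0.08, edgeR adjusted p = 2.6e-05). Within replicate sets the FBS value was 0.72 in replicates 1 to 4 and 0.20 in replicates 5 to 8. UNC5D, a repulsive receptor that in the mouse binds FLRT2, was nearly silent with FBS, with 18 counts in all, against 744 counts with TGF-β1 and 2242 counts in serum-free medium. Its libraries were at 2.21 to 11.2 CPM with TGF-β1, 0 to 0.273 CPM with FBS and 7.67 to 21.3 CPM in serum-free medium, and the log2 fold change was -1.37 ± 0.34 for TGF-β1 and -7.10 ± 0.51 for FBS (edgeR adjusted p = 0.00105 and 1.36e-12).

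NTNG2, a membrane-anchored netrin, and NTN1, the founding secreted netrin, shared a pattern: lower with FBS and not called with TGF-β1. NTNG2 was at 12.6 to 19.4 CPM (median 15.9) with TGF-β1, 0.314 to 2.47 CPM (median 0.792) with FBS and 11.3 to 18.01 CPM (median 14.9) in serum-free medium, a 15.9-fold difference for FBS (log2 -3.99 ± 0.28). NTN1 was at 14.2 to 35.4 CPM, 5.15 to 12.9 CPM and 13.4 to 36.8 CPM in the same order, 2.68-fold lower with FBS. The TGF-β1 differences of 0.09 ± 0.23 for NTNG2 and 0.01 ± 0.26 for NTN1 turned negative under total-count scaling (-0.06 and -0.14). NTNG1 was not called in any comparison (log2 0.48 with TGF-β1 and 0.41 with FBS), but the replicate block called it higher in both treatments (0.50 and 0.43, edgeR adjusted p = 0.000818 and 0.00202).

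SLITs and ROBOs were mostly lower in the treated cells. Of 5 tested, 1 was higher and 4 lower with TGF-β1, and all 5 were lower with FBS. SLIT3, a secreted ROBO ligand, was at 511 to 659 CPM (median 558) with TGF-β1, 118 to 167 CPM (median 132) with FBS and 1434 to 1944 CPM (median 1690.0) in serum-free medium. The groups did not overlap, and SLIT3 fell 2.97-fold with TGF-β1 (log2 -1.57 ± 0.09, edgeR adjusted p = 1.67e-14) and 12.3-fold with FBS (log2 -3.62 ± 0.09, edgeR adjusted p = 1.28e-21). SLIT2 followed the same order at lower level, at 167 to 267 CPM (median 218), 30.98 to 77.9 CPM (median 57.4) and 345 to 476 CPM (median 396), with falls of 1.84-fold and 7.36-fold. SLIT1, the neuronal family member, held 74 counts with TGF-β1, 23 counts with FBS and 1125 counts in serum-free medium (log2 -3.63 ± 0.41 and -5.81 ± 0.47). It would have failed the count filter without the serum-free libraries. Its lower calls, which are among those counted above, were thus at least partly fixed by the filter.

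The receptors split. ROBO1 fell in both treatments, at 20.2 to 31.7 CPM with TGF-β1, 15.7 to 24.3 CPM with FBS and 49.6 to 70.5 CPM in serum-free medium (log2 -1.16 ± 0.10 and -1.59 ± 0.10). ROBO2 was at 6.59 to 25.6 CPM (median 15.1) with TGF-β1, 0.463 to 1.58 CPM (median 1.11) with FBS and 1.65 to 6.25 CPM (median 2.26) in serum-free medium. It rose 5.06-fold with TGF-β1 (log2 2.34 ± 0.34, edgeR adjusted p = 1.31e-06) and fell 2.68-fold with FBS (log2 -1.42 ± 0.36, edgeR adjusted p = 0.000942), without overlap with the serum-free libraries in either case. In TGF-β1 and in serum-free cultures, replicates 1 to 4 all lay above replicates 5 to 8, and the TGF-β1 difference was 2.46 in replicates 1 to 4 and 2.02 in replicates 5 to 8; the FBS call was lost with limma on FPKM (-0.39, adjusted p = 0.0679). Besides ROBO2 and PLXNB1, only UNC50 had opposite calls in the treatments against serum-free (log2 0.31 and -0.42), and both UNC50 calls were lost under total-count scaling (0.16 and -0.17).

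**Figure D3:**
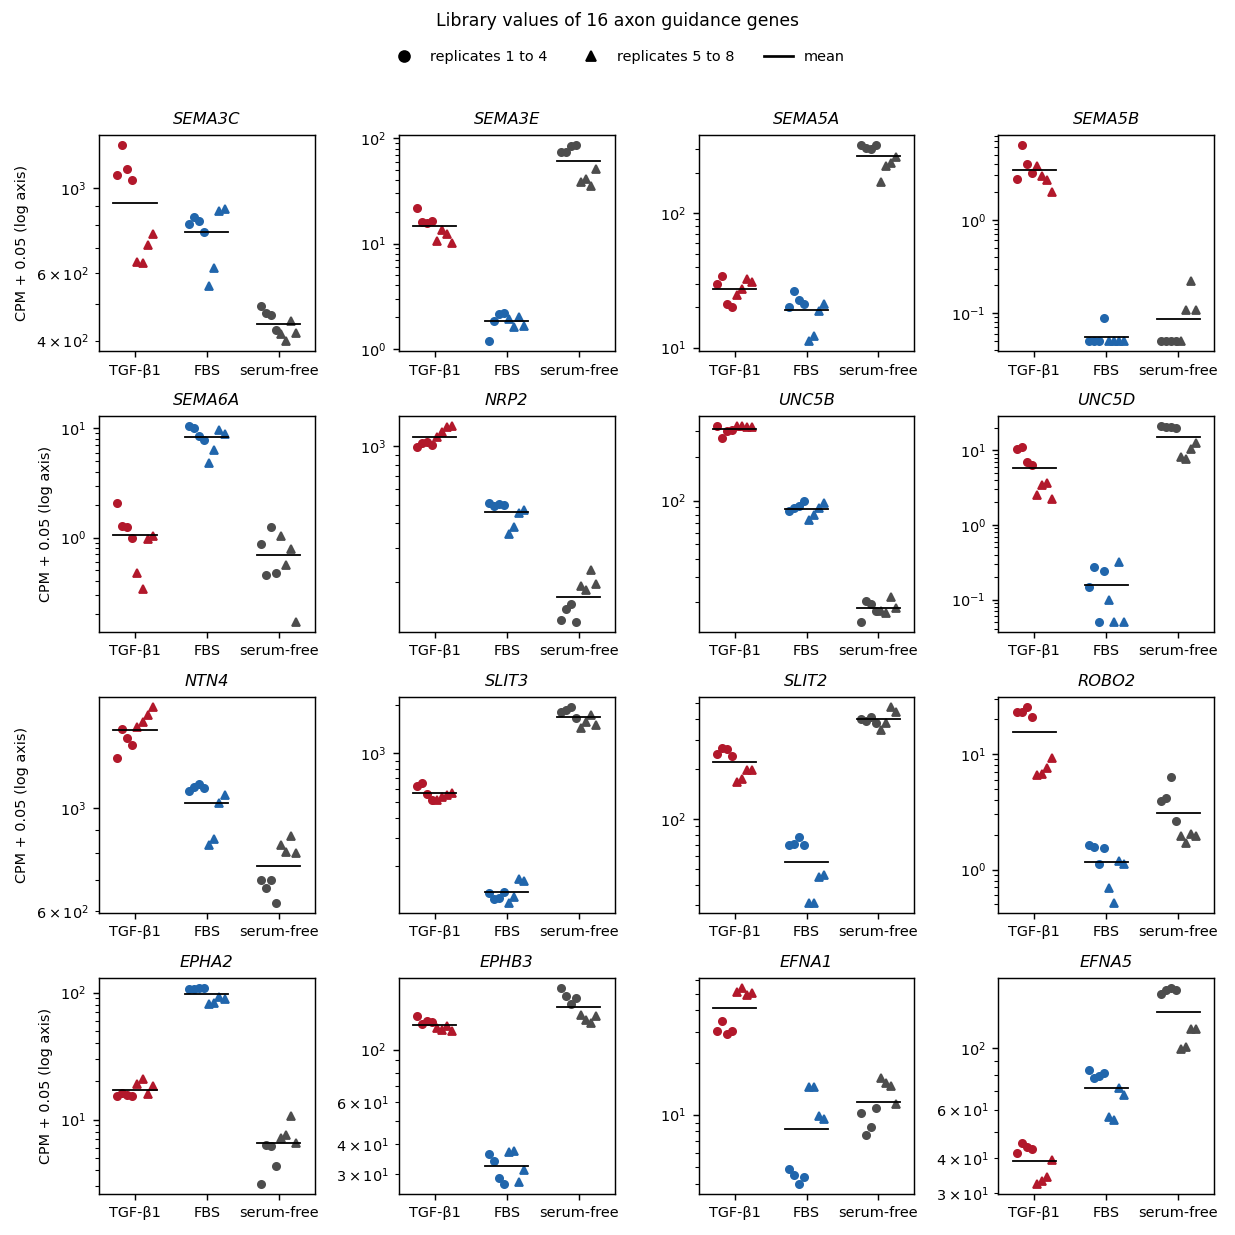
CPM + 0.05 on log axes in every library for 16 members, with TGF-β1, FBS and serum-free from left to right, circles for replicates 1 to 4, triangles for replicates 5 to 8 and a bar at the mean. UNC5B, NRP2 and NTN4 step down from left to right, SLIT3, SLIT2, SEMA3E and UNC5D are lowest with FBS, and EPHA2 and SEMA6A are highest with FBS.

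The second question was how the myofibroblast and fibroblast conditions differed from each other. TGF-β1 cultures had 35 members higher and 12 lower than FBS cultures, with 9 not called. Called members were 83.9% of those tested, against 73.3% of all genes, and higher calls were 62.5% of members against 36.9% of all genes, where lower calls were 21.4% against 36.4%. The median log2 fold change of the members was 0.83, where that of all genes was 0.01. The groups did not overlap for 32 members, or 57.1% of those tested (46.2% of all genes). Replicates 1 to 4 alone gave 33 higher and 12 lower, replicates 5 to 8 alone 37 and 11, and leaving out FBS replicates 5 and 6 gave 36 and 12. Called changes of at least 2-fold numbered 27 higher and 4 lower, where 18.5% of all genes were higher and 17.6% lower by as much. By family, 10 semaphorins were higher and 4 lower, 8 plexins and neuropilins higher and 1 lower, 2 ephrins higher and 3 lower, and 4 Eph receptors higher and 4 lower, while 5 netrins and UNC5 receptors and all 5 SLITs and ROBOs tested were higher with none lower.

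The 5 largest increases were in genes that were low in FBS cells. SEMA5B was 610-fold higher with TGF-β1 in normalized counts (95% binomial interval 109 to 24149, counting error only, from 1 count in the FBS libraries). Its log2 value in the edgeR fit was 8.12. SEMA5B passed the count filter only through the TGF-β1 libraries, so the direction of its difference was fixed by the filter. EPHA7, below, would have failed the filter without the TGF-β1 libraries, so its difference was partly fixed by it. UNC5D was 53.3-fold higher (log2 5.73 ± 0.52, edgeR adjusted p = 1.81e-10), NTNG2 16.9-fold (log2 4.08 ± 0.28), EPHA7 16.1-fold (log2 4.01 ± 0.52) and ROBO2 13.5-fold (log2 3.76 ± 0.37). Abundant members differed too: SLIT3 was 4.13-fold higher (log2 2.05 ± 0.09, edgeR adjusted p = 4.72e-17), UNC5B 3.55-fold (log2 1.83 ± 0.08, edgeR adjusted p = 4.27e-17), NRP2 2.43-fold (log2 1.28 ± 0.12) and EPHB3 3.91-fold (log2 1.97 ± 0.08). NTN4 was 1.44-fold higher (log2 0.52 ± 0.09), a call lost under total-count scaling (0.13, edgeR adjusted p = 0.233).

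FBS cells held more of SEMA6A (log2 -3.03 ± 0.31 for TGF-β1 over FBS, edgeR adjusted p = 1.83e-09), EPHA2 (-2.52 ± 0.15, edgeR adjusted p = 7.14e-14), EFNB2 (-1.40 ± 0.18, edgeR adjusted p = 1.63e-07) and SEMA6D (-1.37 ± 0.19, edgeR adjusted p = 3.09e-07). EPHA2 and its ligand EFNA1 thus differed in opposite directions, EFNA1 being 5.05-fold higher with TGF-β1 (log2 2.34 ± 0.26) and EPHA2 5.73-fold lower. SEMA3A, EFNA5, EPHB2, EPHA4, EPHB1, SEMA4F, NRP1 and EFNB1 were also lower with TGF-β1, with log2 values from -0.99 to -0.31. Of these calls, replicates 5 to 8 alone lost those of EPHB1 (-0.42) and EFNB1 (-0.06), replicates 1 to 4 alone that of SEMA4F (-0.39), and limma on FPKM that of EPHA4 (-0.29). The EFNB1 call was also lost without FBS replicates 5 and 6, with DESeq2 size factors and with only the 16 libraries compared (edgeR adjusted p = 0.0711, 0.0538 and 0.0655), and the EPHB1 call with no count filter (0.0648). Summed counts, with 2 columns per condition, lost all of these calls except those of EFNA5 and EPHB2. SEMA3C was not called (0.24 ± 0.13), being 0.49 in replicates 1 to 4 and -0.10 in replicates 5 to 8. SEMA7A was called (0.87 ± 0.37, edgeR adjusted p = 0.0392), but not with the replicate block (0.69, edgeR adjusted p = 0.0794). Its call was lost under most alternatives. These were total-count scaling, no count filter, the replicate sets as a term, summed counts, limma on FPKM and leaving out FBS replicates 5 and 6. In replicates 1 to 4 its sign turned (-0.23).

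**Figure D4:**
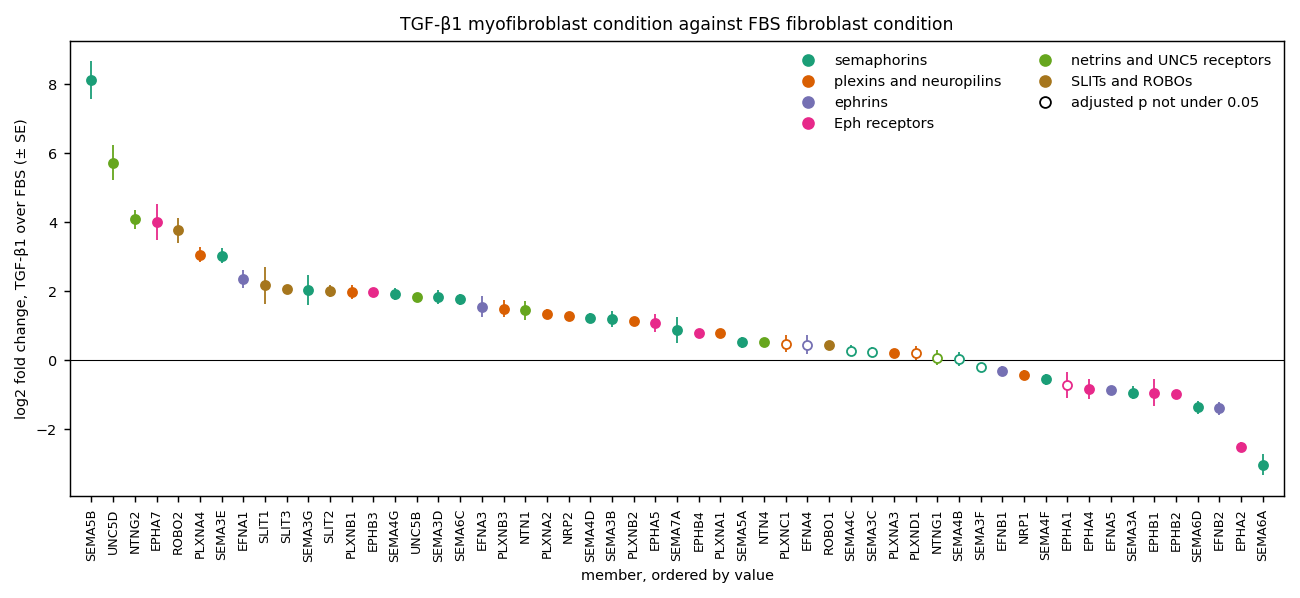
Log2 fold change of TGF-β1 over FBS ± SE for 55 tested members (UNC50 left out) in order of size, coloured by family, with open points where the adjusted p was not under 0.05. SEMA5B and UNC5D stand highest and EPHA2 and SEMA6A lowest. The direction for SEMA5B was fixed by the count filter.

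Partners of the guidance receptors outside the named families were read alongside. Of 18 listed, 14 were tested, and DCC, DSCAM, DRAXIN and NRCAM had too few counts. TGF-β1 cultures had 5 higher and 7 lower than serum-free cultures, and FBS cultures 5 higher and 9 lower. That is 85.7% called with TGF-β1, against 64.3% of all genes, and 100% with FBS, against 80.0%. CNTN2, an axonal adhesion protein of the immunoglobulin family, was at 1.15 to 8.01 CPM (median 4.01) with TGF-β1, 0 to 0.582 CPM (median 0.263) with FBS and 133 to 200.1 CPM (median 155) in serum-free medium (log2 -5.29 ± 0.29 and -9.03 ± 0.37). MET, the HGF receptor that couples to plexin B1, was at 1.53 to 3.34 CPM (median 2.44), 114 to 344 CPM (median 249) and 1.16 to 5.05 CPM (median 2.96) in the same order: it rose with FBS (log2 6.30 ± 0.29, edgeR adjusted p = 1.05e-16) and was not called with TGF-β1 (-0.32 ± 0.28). VEGFA, a neuropilin ligand, rose in both treatments, by 2.84 on the log2 scale with TGF-β1 and 1.42 with FBS. NEO1, the netrin receptor neogenin, was slightly higher with TGF-β1 (log2 0.36) and lower with FBS (-0.81). FLRT1, a ligand of UNC5 receptors, fell in both (log2 -4.70 with TGF-β1 and -1.50 with FBS). The more abundant FLRT2 went the other way by median. It was at 131 to 189 CPM (median 162) with TGF-β1, 67.6 to 135 CPM (median 111) with FBS and 47.6 to 71.1 CPM (median 57.9) in serum-free medium. FLRT3 had medians of 12.4, 10.9 and 20.5 CPM in the same order. NTRK3, the neurotrophin-3 receptor, was lower with TGF-β1 (log2 -3.95 ± 0.46) and held 3 counts with FBS, against 396 in serum-free medium, a ratio of 0.00642 (95% binomial interval 0.00132 to 0.0189). No treated library passed 0.336 CPM of NTRK3. It passed the count filter only through the serum-free libraries, so the direction of both differences was fixed by the filter. Between the treatments, 7 partners were higher and 3 lower with TGF-β1 than with FBS (71.4% called, against 73.3% of all genes).

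Intracellular effectors of guidance receptors were counted from a list of 45, of which 37 were tested. Of these, 13 were higher and 10 lower with TGF-β1, with a median log2 fold change of 0.09, and 21 were higher and 12 lower with FBS, with a median of 0.42. The shares called were 62.2% with TGF-β1 and 89.2% with FBS, against 64.3% and 80.0% of all genes, so the TGF-β1 share was near that of all genes. MICAL2, an enzyme that oxidizes actin, was at 28.2 to 36.2 CPM (median 32.01) with TGF-β1, 33.2 to 118 CPM (median 95.6) with FBS and 0.153 to 2.12 CPM (median 1.04) in serum-free medium (log2 4.90 ± 0.31 and 6.33 ± 0.32). CHN1, a Rac-inactivating protein that acts below EPHA4, was at 3.12 to 8.12 CPM (median 5.79), 35.3 to 42.7 CPM (median 39.6) and 25.4 to 49.5 CPM (median 36.7) in the same order, and fell with TGF-β1 (log2 -2.66 ± 0.17, edgeR adjusted p = 1.89e-13) without a call for FBS (0.11 ± 0.15). FARP2 and DPYSL5, both tied to semaphorin signalling, fell in each treatment (log2 -0.62 and -0.90 with TGF-β1, -2.47 and -2.80 with FBS). ABLIM3, an actin-binding protein, was lower with TGF-β1 (log2 -4.49 ± 0.57), and held 2 counts with FBS, against 281 in serum-free medium, a ratio of 0.00604 (95% binomial interval 0.000727 to 0.0220). No treated library passed 0.403 CPM of ABLIM3. It passed the count filter only through the serum-free libraries, so the direction of both differences was fixed by the filter. TGF-β1 cultures had 12 effectors higher and 16 lower than FBS cultures, or 75.7% called against 73.3% of all genes, and 25 were lower under total-count scaling.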

How the data were processed

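Gene counts of 24 libraries were read from the deposited count table, which per the file headers and values holds whole counts per gene without normalization. The deposited FPKM values equal those counts over gene length and the authors' own library size. In TGF-β1 and FBS libraries that size lay nearer the TMM size used below than the total counts. Results in FPKM are therefore no separate check on the scaling. No source used here gives the aligner, the counting program, its use of strand or the genome build, so reads of antisense or near-identical genes could not be told apart.

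Members were matched by gene name, and members and lists were chosen with earlier results of these data known. The filter filterByExpr of edgeR 4.0.16 (R 4.3.3, minimum count 10) left 13308 genes, which were scaled by TMM, fitted over all 24 libraries by condition and tested with the quasi-likelihood F-test, with Benjamini-Hochberg adjustment over all genes and a threshold of 0.05. CPM use TMM sizes, and a standard error is the log2 fold change divided by the root of F. Levels between genes use FPKM. The fit was tested on simulated data first.

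Same-numbered libraries deviated together (residual correlations 0.177 to 0.362 for TGF-β1 with serum-free, 0.115 to 0.429 for FBS with serum-free and 0.103 to 0.332 for TGF-β1 with FBS, 8 pairs each). These values cannot show pairing by number, because replicates 1 to 4 stood apart from 5 to 8 in every condition. Libraries of unlike number within a set were not correlated. The replicate number, taken from the sample titles, was also fitted as a block. Alternatives used DESeq2 1.42.0, its size factors, total library size, no filter, the 16 libraries compared, each set of 4 replicates, sets summed or as a term, no FBS replicates 5 and 6, and limma 3.58.1 on log2(FPKM + 0.5). Genes given with full values are, per family and comparison, up to 4 called members with the largest change and at least 1 CPM, and the 2 members highest in FPKM. Members with opposite calls and up to 3 genes per pathway list were added. Other members, and ACTA2, TAGLN, VEGFA, NEO1, FLRT2 and FLRT3, were named after their values were seen. No sequence is shown because none was in the files used here.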

Additional observations from a re-analysis of the deposited data

Results flagged for a closer look

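A single library stood apart from the 7 others of its condition in 10 of 168 groups of 8 libraries examined, where chance gives about 1 in 20. TGF-β1 replicate 2 did so for UNC5B, the lowest TGF-β1 library at 268 CPM, and was the highest for SEMA5B at 6.33 CPM and SEMA6D at 7.45 CPM. TGF-β1 replicate 7 was highest for EFNA4 at 2.25 CPM, and TGF-β1 replicate 5 for UNC50 at 50.7 CPM. FBS replicate 5 was highest for NTNG2 at 2.47 CPM, FBS replicate 4 held the 1 read of SEMA5B under FBS at 0.0384 CPM, and FBS replicate 3 was lowest for SEMA7A at 0.393 CPM. Serum-free replicate 8 was highest for PLXNC1 at 20.5 CPM, and serum-free replicate 7 for SEMA5B at 0.169 CPM. In the FBS and serum-free groups most libraries had 0 counts of SEMA5B, so the rate of 1 in 20 does not hold for them.

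For 5 members the effect differed between the replicate sets and had opposite signs in them. Given as replicates 5 to 8 minus replicates 1 to 4 on the log2 scale, the difference in TGF-β1 over FBS was -0.87 for SEMA3F (-0.63 and 0.24), -0.59 for SEMA3C (-0.10 and 0.49), 0.84 for PLXND1 (0.51 and -0.33) and 1.69 for SEMA7A (1.45 and -0.23). In TGF-β1 over serum-free it was -0.33 for PLXNB2 (-0.03 and 0.30).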

How the results depend on the processing

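Counts of called members stayed within 1.5 times under all alternatives run except summing the counts per condition and replicate set (2 columns per condition, so fewer samples), which left 20 members lower in TGF-β1 against serum-free and 7 in TGF-β1 against FBS. Partners and effectors moved by more under summing and under total-count scaling. Summing gave 4 partners higher in TGF-β1 against FBS, 7 effectors higher and 4 lower in TGF-β1 against serum-free, and 8 effectors lower in TGF-β1 against FBS. Scaling by total counts gave 4 partners higher and 25 effectors lower in TGF-β1 against FBS. It moved the median of all genes from -0.03, -0.04 and 0.01 in TGF-β1 against serum-free, FBS against serum-free and TGF-β1 against FBS to -0.17, 0.21 and -0.39, and the calls of all genes, higher and lower, from 4155 and 4408 to 3215 and 5368 in the first and from 4917 and 4840 to 3131 and 6819 in the last, while members had 14 higher and 32 lower, 13 and 36, and 30 and 15. With the replicate block the members' counts were 16 and 32, 12 and 41, and 35 and 12. Apart from EFNA1, EFNA3, NTNG1, SEMA4C, SEMA7A and TAGLN above, and ABLIM3 in TGF-β1 against FBS (2.09, edgeR adjusted p = 0.0554), the block changed no other call of the members and named genes. Leaving out FBS replicates 5 and 6 gained 7 calls (EFNA1, NTNG1 and SEMA4F in FBS against serum-free, EFNA3 in TGF-β1 against serum-free, and EFNA4, EPHA1 and SEMA4C in TGF-β1 against FBS) and lost 3 (ABLIM3, EFNB1 and SEMA7A in TGF-β1 against FBS). Direction turned under total-count scaling in TGF-β1 against serum-free for EPHA7 (-0.01), NTN1 (-0.14), NTNG2 (-0.06), PLXNA1 (-0.10), PLXNB2 (-0.03) and SEMA4C (-0.12), in FBS against serum-free for EPHB2 (0.20), and in TGF-β1 against FBS for NTNG1 (-0.33), PLXNA3 (-0.18), PLXND1 (-0.19), SEMA3C (-0.16), SEMA4B (-0.35) and SEMA4C (-0.11). It turned in replicates 1 to 4 for EPHA7 (-0.28) in TGF-β1 against serum-free, CHN1 (-0.14) and SEMA5B (1.41) in FBS against serum-free, and ABLIM3 (-2.10), PLXND1 (-0.33), SEMA3F (0.24) and SEMA7A (-0.23) in TGF-β1 against FBS. In replicates 5 to 8 it turned for NTN1 (-0.02) and PLXNB2 (-0.03) in TGF-β1 against serum-free, and SEMA3C (-0.10) and SEMA4B (-0.13) in TGF-β1 against FBS. It also turned for EPHB2 in FBS against serum-free with no filter (0.01) and with summed counts (0.07), and for NTNG1 in TGF-β1 against FBS without FBS replicates 5 and 6 (-0.05). Of these turned values, those of PLXNA3 and EPHB2 under total-count scaling and of PLXND1 and SEMA3F in replicates 1 to 4 were past the threshold. The causes were not tested, except that total counts include the shift of all genes. Members with few counts, such as SEMA5B, SEMA7A, EPHB1 and EPHA7, are limited by depth.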
